A study of Mus musculus with 10 samples.

Results

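The values given here are those of 9 interferon-stimulated genes in mouse brain microglia: Ifit1, Ifit2, Ifit3, Isg15, Irf7, Oas1a, Mx1, Ifitm3 and Rsad2. They are a listed set matched by symbol to the gene identifiers of the RefSeq table, and all 9 of 9 matched, out of 46152 genes counted. Each had reads, and each passed the filter on low values (above 1 CPM, the count scaled to a fixed library total, in at least 3 libraries). Microglia were isolated from C57BL/6J mice of 8 to 12 weeks that were gavaged for 8 days with vehicle (Tween 80 and hydroxymethyl propyl-cellulose) or with GW2580 at 80 mg/kg/d. GW2580 blocks the kinase of CSF1R, the receptor through which CSF1 and IL-34 act on microglia. There were 5 mice in each group, 2 male and 3 female, and a library was made from each mouse and is called by its treatment and number below. No interferon or infection was part of either treatment. The cells were enriched on a Percoll gradient and then by magnetic selection for CD11b, a surface protein that monocytes and granulocytes also carry.

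Type I interferons bind the receptor IFNAR, whose kinases JAK1 and TYK2 phosphorylate transcription factors of the STAT family. These join IRF9 and bind the interferon-stimulated response element, ISRE, in the promoters of many antiviral genes. Type II interferon acts through STAT pairs on another element, GAS. The products studied here differ in function: the Ifit proteins bind foreign RNA, Oas1a belongs to the oligoadenylate synthetases that sense double-stranded RNA, Mx1 is a dynamin-like GTPase, Ifitm3 blocks virus entry at endosomes, Rsad2 (viperin) makes an antiviral nucleotide, Isg15 is a ubiquitin-like protein, and Irf7 is the transcription factor that raises interferon alpha production. Microglia produce and respond to type I interferon, and a small number of cells with an interferon response is found in healthy brain. The Mx1 allele of C57BL/6 mice encodes no working protein, so its RNA is a readout of induction only.

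The genes lie in a few places of GRCm38.p6. Ifit2 (chr19:34550550-34576534), Ifit3 (chr19:34583119-34588982) and Ifit1 (chr19:34640889-34650009) are neighbours on the plus strand of chromosome 19. Ifitm3 (chr7:141009590-141010744) and Irf7 (chr7:141263183-141266499) share a stretch of chromosome 7, and Isg15 (chr4:156199424-156200818), Oas1a (chr5:120896256-120907544), Mx1 (chr16:97447035-97462906) and Rsad2 (chr12:26442743-26456452) lie apart, all 6 on the minus strand. Ifit1 overlaps Ifit1bl1 and Isg15 overlaps the lncRNA Gm46878 on the opposite strand. The fragments were counted without regard to strand, so reads of such a pair cannot be told apart where they overlap. Ifit3 has the near-identical copy Ifit3b and Oas1a the similar Oas1g, so their counts are uncertain.

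Promoter sequences, from 250 bases before to 50 after the start, were taken from RefSeq (GRCm38.p6) and were found for 8 of the 9 genes, all but Mx1. The ISRE core was searched as GAAANNGAAA on both strands. It was present for 6 of these 8 genes, against 3.99% of all 27025 genes with a promoter. The following stretches hold the matches that lie upstream of the listed start of 5 genes. These stretches are shown because they match the letters of the ISRE core, and binding was not measured here. They read 5′ to 3′ on the strand of the gene, and capitals mark matches on either strand, which read TTTC at both ends where the match is on the opposite strand.
Isg15, chr4:156200867-156200904, minus strand: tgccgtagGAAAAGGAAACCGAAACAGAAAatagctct
Oas1a, chr5:120907526-120907553, minus strand: cttctcggGAAATGGAAACTGAAAatct
Ifit1, chr19:34640777-34640821, plus strand: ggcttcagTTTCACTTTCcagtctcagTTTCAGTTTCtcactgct
Ifit3, chr19:34583399-34583424, plus strand: taagtctgTTTCAGTTTCtactttcc
Rsad2, chr12:26456555-26456580, minus strand: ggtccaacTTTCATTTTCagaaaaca
The Isg15 stretch holds 3 overlapping matches and lies from 86 to 49 bases before the start. Ifit1 holds 2 matches from 112 to 68 bases before the start, and Oas1a holds 2 overlapping matches in the last 28 bases before it. Ifit3 is shown with the nearer of its matches, which lies inside the annotated gene, as do nearly all bases of the Oas1a matches. The matches of Ifitm3 lie after its start and are not printed. No ISRE letters were found in the windows of Ifit2 and Irf7, and this says only that these letters are not in those windows. GAS, searched as TTCNNNGAA, was present for 3 of 8 genes (Ifit2, Oas1a and Ifitm3) against 9.55% of all genes, and in Ifitm3 it overlaps an ISRE match.

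Fragments assigned to genes ranged from 12550418 to 20854218 in the vehicle libraries and from 13228819 to 26079343 in the GW2580 libraries, with TMM factors from 0.691 to 1.61. The 10 markers of microglia (Tmem119, P2ry12 and others) were all detected and summed to between 12119 and 56389 CPM in every library, whereas 8 endothelial markers summed to between 56.1 and 174 CPM, with Cldn5 at 0 in all libraries. RNA of other cells was high in some libraries. In Vehicle 2, 7 oligodendrocyte markers summed to 15320 CPM and 7 astrocyte markers to 3038 CPM. In Vehicle 1, 9 monocyte and granulocyte markers summed to 26384 CPM, above its microglial sum of 21619 CPM. A pair of libraries stood apart from their groups. In the first principal component, which held 47.1% of the variance, Vehicle 5 lay at 77.9, on the side of most GW2580 libraries, and GW2580 5 lay at -45.8, beside the other vehicle libraries, which ran from -40.5 to -35.0. Vehicle 5 also had the lowest microglial sum, the fewest genes detected (37176, against at least 39197 in each other library) and the most choroid plexus and ependymal RNA (25770.1 CPM over 6 markers, against at most 3525 elsewhere). In the second principal component Vehicle 5 lay at 67.6, apart from the GW2580 libraries, which ran from -52.7 to -0.607. Whether the labels of Vehicle 5 and GW2580 5 are right could not be checked here, so each group difference rests on unchecked labels. The labels are used as given, and where a call, a direction or a count of calls named below changed without these libraries, that value is given too. GW2580 1 and GW2580 4 had the lowest shares of records assigned to a gene (25.88% and 24.32%), the highest shares outside exons (56.07% and 60.1%) and the highest TMM factors (1.23 and 1.61).

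In cells isolated from vehicle mice the genes differed widely in level. The 8 early response genes that rise on tissue dissociation (Fos, Jun and others) summed to between 28137 and 40194 CPM in the vehicle libraries. The part of dissociation in the levels below was not tested. To compare genes, CPM was divided by the exon length in kilobases. In the vehicle libraries Ifitm3 had 378 ± 363 CPM per kilobase (SD, n = 5), Isg15 33.1 ± 20.1, Irf7 18.4 ± 7.23, Oas1a 12.7 ± 4.71 and Ifit3 7.69 ± 2.54. Ifitm3 was at 1002 CPM per kilobase in Vehicle 1 and between 64.5 and 312 in the other vehicle libraries. The 4 lowest were Rsad2 with 5.19 ± 5.31, Ifit1 with 2.27 ± 0.621, Ifit2 with 1.53 ± 0.993 and Mx1 with 1.40 ± 0.970 CPM per kilobase. By the median over all 10 libraries, Ifitm3 stood above 99.0% of the 28419 genes tested and Mx1 above 45.8%. Ifitm3 was above Isg15, and Oas1a above Ifit3, in 10 of 10 libraries. Some neighbours in this order changed places from mouse to mouse: Isg15 was above Irf7 in 6 of 10 libraries, Ifit1 above Ifit2 in 7 and Ifit2 above Mx1 in 5.

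**Figure D1:**
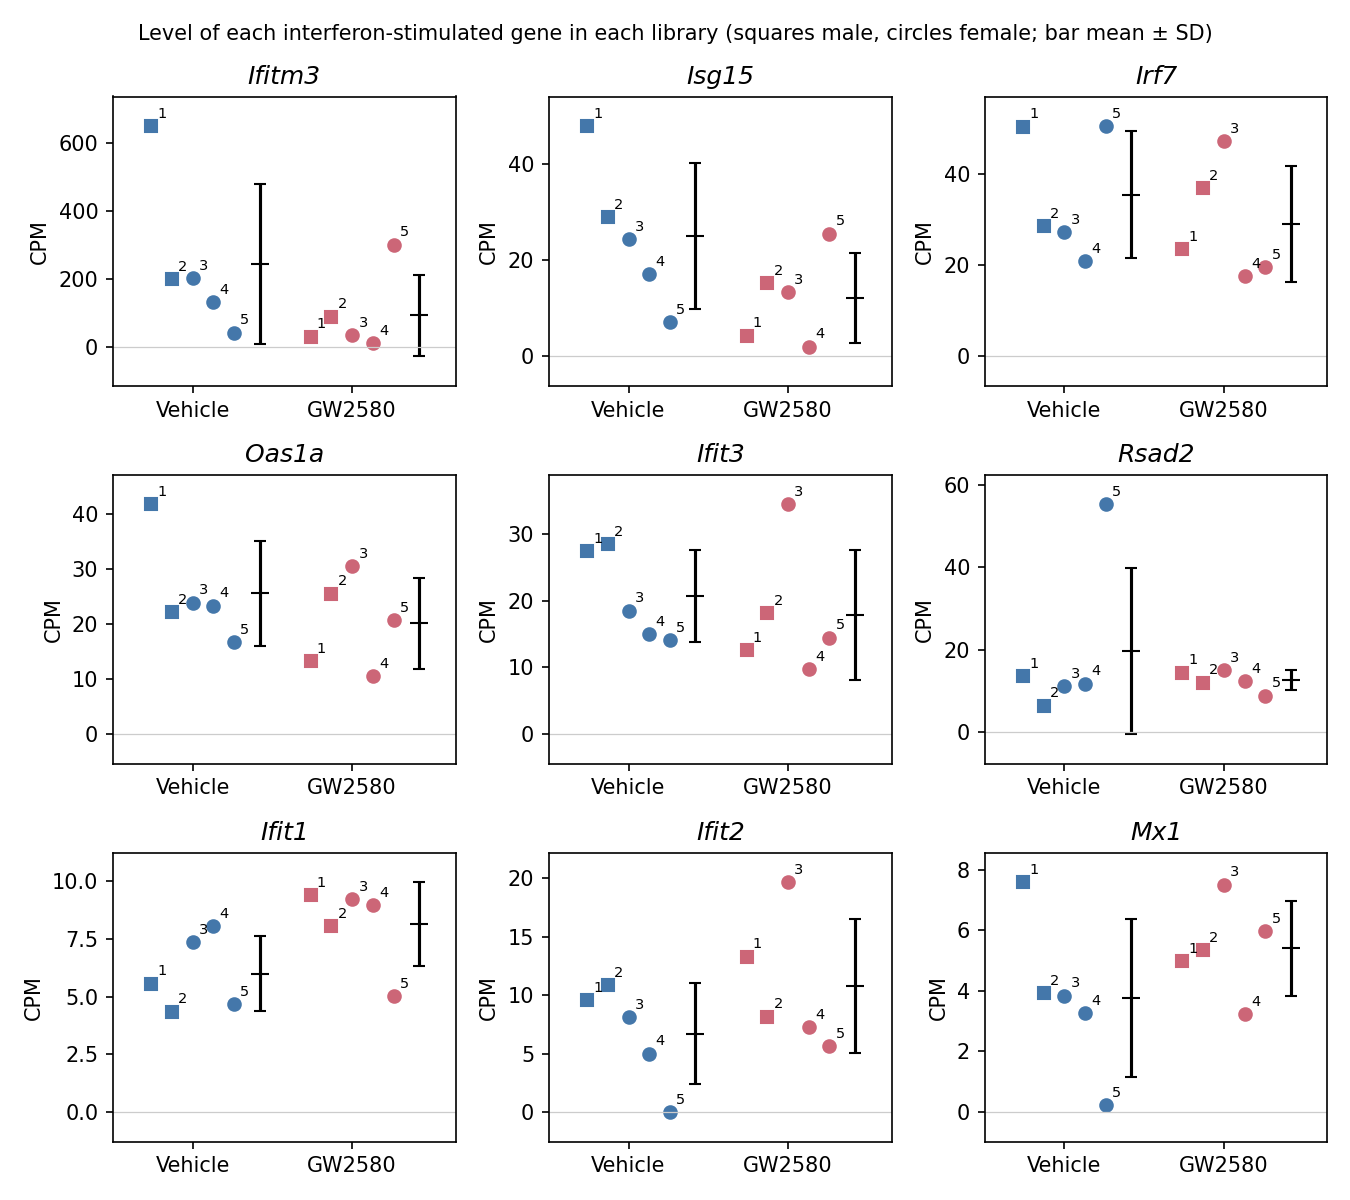
Level of each of the 9 genes in CPM (counts scaled to a fixed library total with TMM factors, linear axis) in each library, ordered from the highest to the lowest level per kilobase. Squares are male and circles female mice, digits are replicate numbers, and the black bar is the mean ± SD of 5 libraries; the groups overlap for every gene, and Vehicle 5 is the lowest or highest vehicle library for several.

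GW2580 was compared with vehicle to ask whether blocking CSF1R changes the interferon-stimulated genes. With all 10 libraries, 0 of the 9 genes passed the thresholds of the study (more than 2-fold, with an unadjusted p under 0.05 in the quasi-likelihood test of edgeR), against 10.7% of all 28419 genes tested, and 0 of 9 had an unadjusted p under 0.05 at any fold change, against 14.7%. DESeq2 and edgeR's likelihood ratio test also called 0 of 9, and limma-voom called 1, Ifitm3, against 10.6% of all genes. Fitted values were higher with GW2580 for 3 genes (Ifit1, Ifit2 and Mx1) and lower for 6, with a median log2 fold change of -0.30 beside -0.03 over all genes. The groups overlapped for all 9 genes, whereas 3.03% of all genes had groups that did not overlap. In bulk RNA of this kind, fewer cells that express a gene and less RNA per cell cannot be told apart.

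Ifitm3 and Isg15 had the largest fitted differences by edgeR. With vehicle, Ifitm3 stood at 649.5, 199, 202, 132 and 41.8 CPM in replicates 1 to 5. With GW2580 it stood at 29.8, 89.0, 34.6, 10.3 and 301 CPM. Of the GW2580 libraries, 3 were below every vehicle library, while GW2580 5 was above 4 of the 5 vehicle libraries and Vehicle 5 was near the GW2580 values. The log2 fold change was -1.40 (SE 0.830, adjusted p = 0.436, edgeR quasi-likelihood test with Benjamini-Hochberg adjustment), and the two-sided exact permutation test over all assignments of 5 of the 10 libraries gave p = 0.135, where 0.00794 is the smallest p possible. The SD was 235 CPM with vehicle and 119.9 CPM with GW2580 (n = 5 each), against means of 245 and 93.0 CPM, so the difference of the means was smaller than the SD with vehicle and larger than the SD with GW2580.

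Isg15, which is joined to other proteins in the interferon response, followed the same libraries. It stood at 47.9, 28.9, 24.3, 17.1 and 7.02 CPM with vehicle and at 4.26, 15.2, 13.3, 1.99 and 25.5 CPM with GW2580. Again GW2580 5 was among the vehicle values and Vehicle 5 among the GW2580 values. The log2 fold change was -1.06 (SE 0.612, adjusted p = 0.424, edgeR; exact permutation p = 0.151).

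Both genes depended on which libraries were kept. Without Vehicle 5 and GW2580 5, Ifitm3 was lower with GW2580 by a log2 fold change of -2.94 (SE 0.638, adjusted p = 0.0113) and Isg15 by -1.88 (SE 0.520, adjusted p = 0.0260, both edgeR), so that 2 of 9 genes were called against 22.3% of 27215 genes tested in that fit, and 2 of 9 passed an adjusted p of 0.05 against 17.8%. These libraries were chosen by their place in the first principal component, where GW2580 5 was among most vehicle libraries. Vehicle 5, at 77.9, was beyond every GW2580 library there (highest 46.4, GW2580 4), and apart from them in the second component. This choice makes the groups differ more, and the fit without both libraries is a description of the other 8. Leaving out Vehicle 5 alone gave -1.67 for Ifitm3 (unadjusted p = 0.0459, edgeR) and -1.30 for Isg15 (unadjusted p = 0.0314), and leaving out GW2580 5 alone gave -2.67 (unadjusted p = 0.00474) and -1.63 (unadjusted p = 0.0241). Without Vehicle 1, the highest library of both genes, the values were -0.63 for Ifitm3 and -0.69 for Isg15, with unadjusted p = 0.443 and 0.287 by edgeR.

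**Figure D2:**
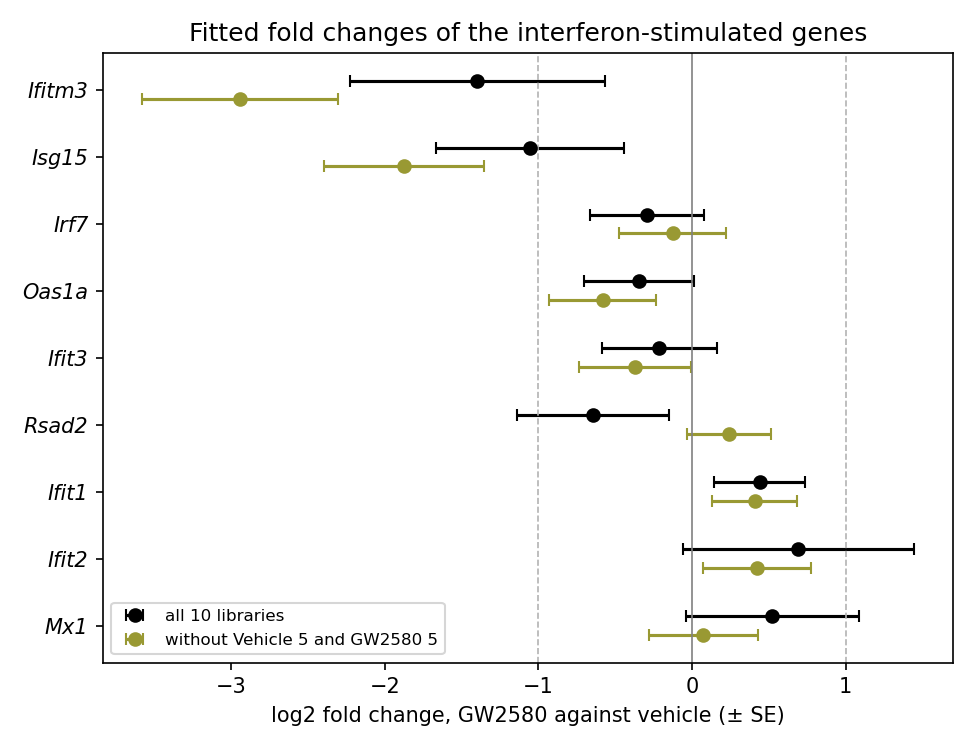
Fitted log2 fold change of GW2580 against vehicle (x axis, ± SE, edgeR) of each gene, with all 10 libraries (black) and without Vehicle 5 and GW2580 5 (olive); dashed lines mark a fold change of 2. Ifitm3 moves from -1.40 to -2.94 and Isg15 from -1.06 to -1.88, and Rsad2 changes sign from -0.64 to 0.24.

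Monocyte and granulocyte RNA also varied from library to library, and is set beside Ifitm3 and Isg15 here without a computed relation. The 9 markers of these cells (Ly6c2, Ccr2, S100a8, S100a9, Retnlg, Ngp, Camp, Plac8 and Mmp9) summed to 26384, 7426, 3117, 2525 and 506 CPM in vehicle replicates 1 to 5. In the GW2580 libraries the sums were 3455, 11059.7, 584, 809.97 and 5777 CPM. The libraries with the highest sum (Vehicle 1) and with low sums (Vehicle 5, GW2580 3 and GW2580 4) were also high and low in Ifitm3, while GW2580 2 had the second highest sum and an Ifitm3 level below most vehicle libraries. GW2580 1 was another exception, with a sum above those of Vehicle 3 and Vehicle 4 and an Ifitm3 level below both. Of the 9 markers, 7 had lower fitted values with GW2580 and 1 passed the thresholds (Plac8, log2 fold change -1.602, unadjusted p = 0.0225, edgeR), with a median log2 fold change of -1.11, and none was at 0 in all libraries. The part of monocyte and granulocyte RNA in the values of Ifitm3 and Isg15 was not tested.

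**Figure D3:**
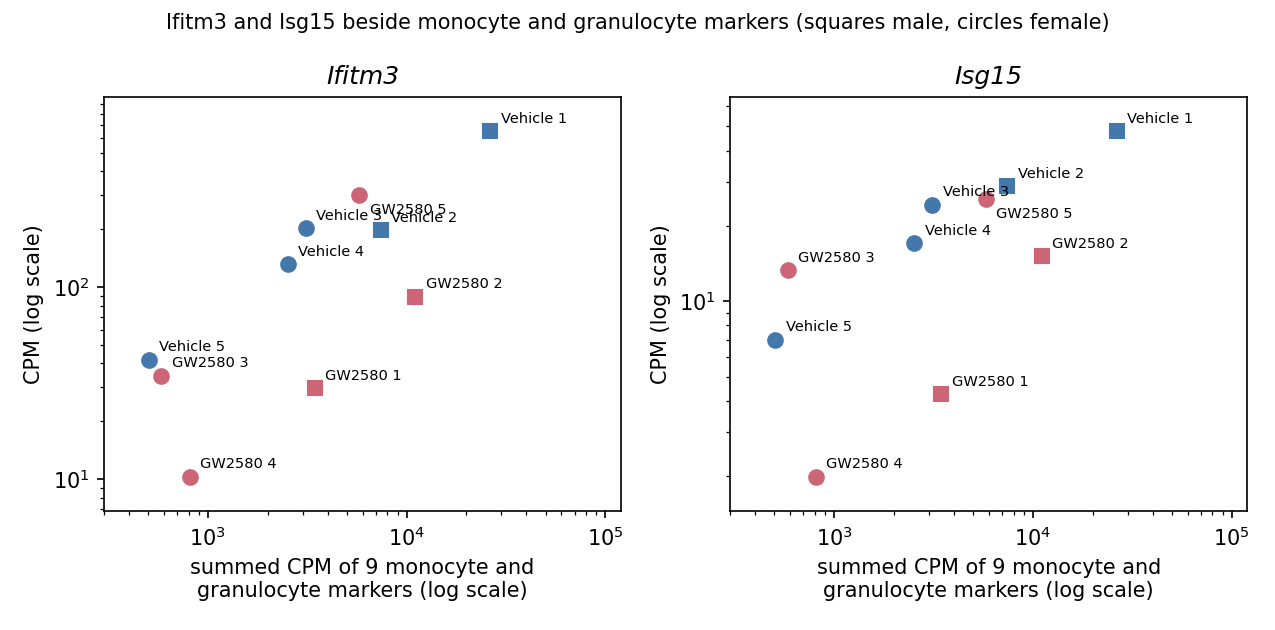
Level of Ifitm3 (left) and Isg15 (right) in CPM against the summed CPM of 9 monocyte and granulocyte markers, both axes logarithmic, 1 point per library (blue vehicle, red GW2580; squares male, circles female). Vehicle 1 is highest on both axes at 26384 CPM of markers, and Vehicle 5, GW2580 3 and GW2580 4, with 506 to 809.97 CPM of markers, are among the lower values of Ifitm3.

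Irf7, the transcription factor of the set, differed little between the groups. It stood at 50.5, 28.6, 27.2, 20.8 and 50.6 CPM with vehicle and at 23.5, 37.0, 47.3, 17.6 and 19.5 CPM with GW2580. The highest vehicle libraries were Vehicle 1 and Vehicle 5 and the highest GW2580 library was GW2580 3, so high and low values were found in both groups. Its log2 fold change was -0.30 (SE 0.371, adjusted p = 0.724, edgeR; exact permutation p = 0.437).

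Oas1a and Ifit3, which act on foreign RNA, had groups that overlapped. Oas1a stood at 41.7, 22.2, 23.9, 23.3 and 16.7 CPM with vehicle and at 13.2, 25.5, 30.5, 10.5 and 20.7 CPM with GW2580 (log2 fold change -0.35, SE 0.358, adjusted p = 0.658, edgeR; exact permutation p = 0.310). Ifit3 stood at 27.5, 28.5, 18.5, 15.0 and 14.1 CPM with vehicle and at 12.6, 18.1, 34.5, 9.70 and 14.5 CPM with GW2580 (log2 fold change -0.21, SE 0.374, adjusted p = 0.809, edgeR; exact permutation p = 0.484). In both genes GW2580 1 and GW2580 4 were below every vehicle library, and GW2580 3 was the highest GW2580 library. GW2580 1 and GW2580 4 were also the lowest of all 10 libraries in Ifitm3 and Isg15, and the part of their low assigned share in these values was not tested.

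The 3 genes with higher fitted values with GW2580 were among the 4 of lowest level. Ifit1 stood at 5.56, 4.34, 7.35, 8.04 and 4.66 CPM with vehicle and at 9.40, 8.04, 9.22, 8.95 and 5.01 CPM with GW2580. In 4 of the 5 GW2580 libraries it was above every vehicle library, by less than the rounding in 1 of them, and GW2580 5 was the exception. The log2 fold change was 0.44 (SE 0.298, adjusted p = 0.490, edgeR; exact permutation p = 0.0794, the lowest of the 9 genes).

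Ifit2 stood at 9.60, 10.8, 8.10, 5.00 and 0 CPM with vehicle and at 13.3, 8.17, 19.7, 7.29 and 5.62 CPM with GW2580. Mx1 stood at 7.58, 3.92, 3.84, 3.27 and 0.225 CPM with vehicle and at 4.98, 5.34, 7.50, 3.22 and 5.96 CPM with GW2580. In Vehicle 5 there were 0 fragments of Ifit2 and 4 of Mx1, although this library had the highest total of the vehicle group. The log2 fold changes were 0.69 for Ifit2 (SE 0.752, adjusted p = 0.677, edgeR; exact permutation p = 0.270) and 0.52 for Mx1 (SE 0.563, adjusted p = 0.675, edgeR; exact permutation p = 0.238). By limma-voom the value of Ifit2 was 2.07, larger than that of Ifitm3 (-1.78) or Isg15 (-1.34), and the difference of its mean log2 CPM was 1.48. Without Vehicle 5 the edgeR values were 0.37 for Ifit2 and 0.21 for Mx1, with unadjusted p = 0.334 and 0.531 by edgeR.

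Rsad2 went the opposite way in the same library. With vehicle it stood at 13.6, 6.44, 11.2, 11.8 and 55.3 CPM and with GW2580 at 14.5, 12.1, 15.1, 12.5 and 8.87 CPM. Vehicle 5 was far above the other 9 libraries, of which the highest was GW2580 3. The log2 fold change of -0.64 (SE 0.497, adjusted p = 0.548, edgeR; exact permutation p = 0.817) became 0.23 without Vehicle 5 (SE 0.278, unadjusted p = 0.423, edgeR). Vehicle 5 thus held the highest Rsad2 and the lowest Ifit2 and Mx1 of all 10 libraries.

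**Figure D4:**
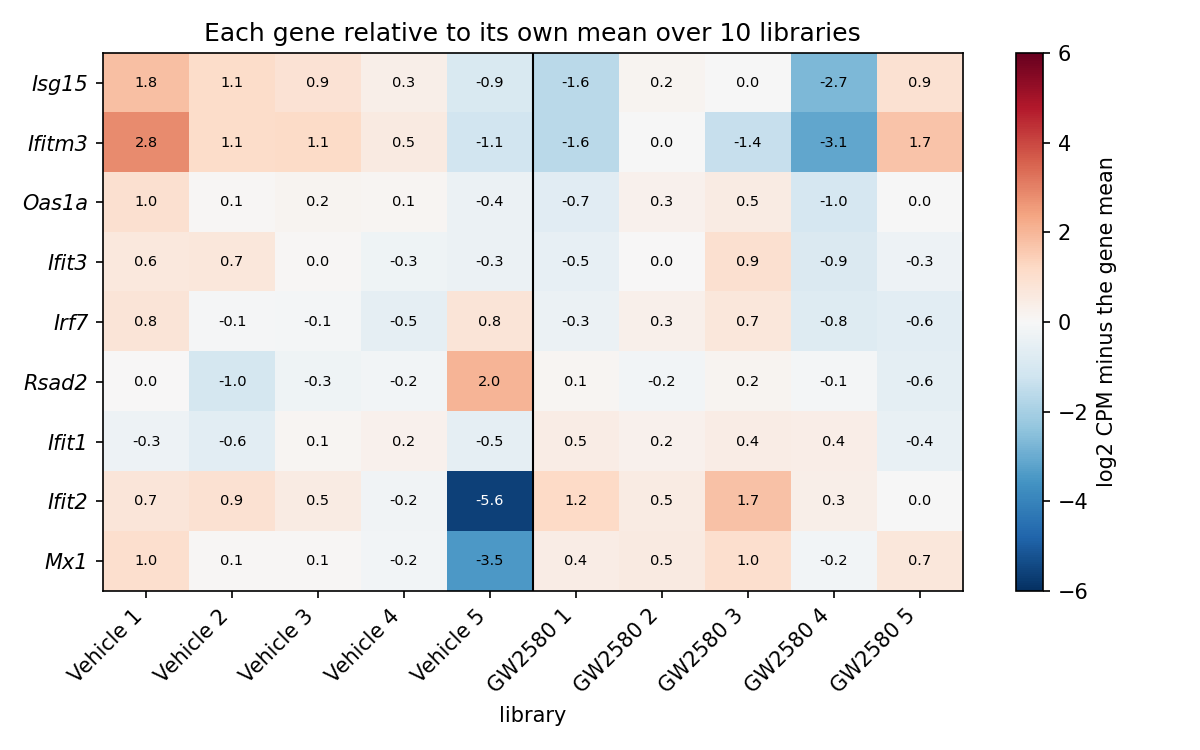
Each gene (rows) in each library (columns) as log2 CPM minus the mean of that gene over the 10 libraries, with a prior count of 2; red is above and blue below the mean. Isg15 and Ifitm3 are high or low in the same libraries, and Vehicle 5 is low for Ifit2 and Mx1 and high for Rsad2.

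Both sexes were in both groups, and the treatment effect was compared between them. For Ifitm3 the difference of mean log2 CPM (GW2580 minus vehicle) was -2.80 in male and -1.12 in female mice, and for Isg15 -2.19 and -0.68. The sex by treatment interaction had an unadjusted p under 0.05 for 0 of 9 genes, against 2.52% of all genes tested (edgeR quasi-likelihood test). The lowest was that of Ifitm3 (log2 interaction, male minus female, -2.72, SE 1.63, unadjusted p = 0.119, adjusted p = 1.00, edgeR). With 2 male mice per group these estimates are uncertain, and no difference between the sexes was detected for the 9 genes.

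From mouse to mouse, some of the genes varied together and others did not. Of the 36 pairs among the 9 genes, Pearson's r of log2 CPM over the 10 libraries was above 0.7 for 6 pairs and below 0 for 14. Without Vehicle 5 it was above 0.7 for 8 pairs and below 0 for 11, and some signs turned: r went from -0.20 to 0.75 for Irf7 and Mx1, from -0.28 to 0.62 for Irf7 and Ifit2, and from -0.82 to 0.33 for Ifit2 and Rsad2. With Irf7, the highest of 8 relations was that of Ifit3 (r = 0.64, permutation p = 0.0487, adjusted p = 0.241 over 8 relations; rho = 0.52, permutation p = 0.133, adjusted p = 0.357). It was 0.61 after centring within groups and 0.84 without Vehicle 1 and Vehicle 5, the libraries farthest from the median of Irf7. None of the 8 relations with Irf7 passed the adjustment. Among all 36 pairs, a family chosen after the values were seen, Isg15 and Ifitm3 had r = 0.95 (permutation p = 2e-05, adjusted p = 0.00072) and rho = 0.95 (permutation p = 0.00011, adjusted p = 0.00396). Their r was 0.93 after centring within groups and 0.92 when GW2580 1 and GW2580 4, the extremes of Isg15 on the log scale, were left out. By Pearson's r, 3 of the 36 pairs passed an adjusted p of 0.05, and by both measures 1 did, Isg15 and Ifitm3. Isg15 and Oas1a had r = 0.87 (permutation p = 0.001, adjusted p = 0.018) and rho = 0.60 (adjusted permutation p = 0.294). Ifit3 and Oas1a had r = 0.83 (permutation p = 0.00269, adjusted p = 0.0323) and rho = 0.84 (adjusted permutation p = 0.0706). Ifit2 and Mx1 had r = 0.95 as well (permutation p = 0.00781, adjusted p = 0.0703), with rho = 0.64 (permutation p = 0.0548, adjusted p = 0.282), and r fell to 0.27 without Vehicle 5 and GW2580 3, so this relation rests on those libraries. All pairs share the libraries and their scaling.

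Outside the pathway lists, the genes whose log2 CPM over the 10 libraries was most like the mean of the 9 centred genes were Rgs1 (r = 0.97), Map3k8 (0.97), Milr1 (0.95), Cwc27 (0.94), Sat1 (0.94) and Cxcl10 (0.94), out of 14610 genes with a mean of at least 5 CPM. These r are the highest of many and are given as a description. Cxcl10 encodes a chemokine that interferon induces.

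The rest of the pathway was followed in 9 further lists, of 154 genes in all, of which 133 passed the filter. The thresholds were passed by 15 of these 133 genes, or 11.3%, near the 10.7% of all genes, with 4 higher and 11 lower with GW2580, and 0 passed an adjusted p of 0.05 by edgeR (0 of all genes did so by this test, 53 by the likelihood ratio test and 177 by DESeq2). Their median log2 fold change was 0.03. In the fit without Vehicle 5 and GW2580 5, 25 passed, 11 higher and 14 lower, against 22.3% of all genes in that fit. The split of the calls depended on the scaling: with library size alone in place of TMM factors, 8 were higher and 5 lower, and calls lost then included those of Ifng, Oas3, Ifi205, Isg20 and Gbp8 (log2 fold changes from -1.18 to -0.72), while the 9 genes kept their directions.

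Of 20 interferon genes, 7 passed the filter, all at a few CPM or less. The thresholds were passed by Ifna4 (0.471 ± 0.402 CPM with vehicle, 1.56 ± 0.638 with GW2580, log2 fold change 1.74), Ifna15 (0.350 ± 0.363 and 2.02 ± 1.00 CPM, 2.56) and Ifng (2.88 ± 1.87 and 1.24 ± 0.738 CPM, -1.22; SD, n = 5 each). Each of these interferon alpha genes was above every vehicle library in 4 of 5 GW2580 libraries, all but GW2580 2 for Ifna4 and all but GW2580 5 for Ifna15. The counts were low, with at most 15 fragments of Ifna4 and 11 of Ifna15 in a vehicle library. Ifna15 was highest in GW2580 1 and GW2580 4 (59 and 62 fragments), and the part of their low assigned share was not tested. The call of Ifna4 was lost without Vehicle 2 (1.59) and without GW2580 1 (1.53). The interferon alpha genes are near-identical copies, so the split of their reads is uncertain. Ifnb1, the first interferon made in most cells, stood at 3.07 ± 1.86 and 4.604 ± 1.603 CPM and did not pass. Ifng was highest in Vehicle 5 at 6.12 CPM, which also had the highest sum of 10 lymphocyte markers (520.5 CPM against at most 174 in the others). Without Vehicle 5 and GW2580 5, Ifna4 (log2 fold change 1.40) and Ifna15 (2.38) passed and Ifng (-0.90, unadjusted p = 0.0964, edgeR) did not.

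Of 12 genes of the receptors and the signal relay, from Ifnar1 to Irf9, 0 passed the thresholds, 0 had an unadjusted p under 0.05 by edgeR, and the median log2 fold change was 0.14. The median was 0.28 and 1 passed as higher without Vehicle 5 and GW2580 5: Tyk2 (1.05, against 0.24 with all libraries), named after its value was seen. The most abundant were Ifngr1, a receptor chain for interferon gamma (798 ± 169 CPM with vehicle, 1046 ± 550 with GW2580), and Ifnar2, a receptor chain for type I interferon (361 ± 91.8 and 264 ± 109 CPM). The 7 other interferon regulatory factors tested had a median log2 fold change of 0.34. Irf8, needed for microglial identity, stood at 638 ± 85.9 and 806 ± 399 CPM, and Irf5 at 325 ± 38.1 and 541 ± 298 CPM.

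The 9 sensor and adaptor genes, 7 brakes and 4 genes of the ISG15 conjugation machinery had 0 genes past both thresholds, with median log2 fold changes of 0.35, 0.12 and 0.21. Without Vehicle 5 and GW2580 5, 1 sensor gene (Mavs, an adaptor for RNA sensors, 1.09, named after its value was seen) and 1 conjugation gene (Uba7, 1.36 against 0.91 with all libraries) passed as higher, and 0 of the brakes. Sting1, the adaptor for cytosolic DNA, stood at 495 ± 151 and 578 ± 303 CPM and Tbk1, the kinase behind it, at 46.5 ± 12.2 and 68.8 ± 31.7 CPM. Socs3, which damps cytokine signalling, stood at 448 ± 95.1 and 738 ± 466 CPM and Pias1 at 141 ± 14.0 and 153 ± 64.6 CPM. Of the enzymes that attach ISG15, the activating enzyme Uba7 stood at 63.9 ± 32.0 and 120.4 ± 70.0 CPM and the conjugating enzyme Ube2l6 at 39.9 ± 13.4 and 26.9 ± 11.0 CPM. Where the mean was higher with GW2580, the SD was also larger, and GW2580 3 was the highest GW2580 library for Irf5, Irf8, Sting1, Tbk1, Socs3 and Uba7. Of all 10 libraries, GW2580 3 also had the highest sums of microglial markers (56389 CPM) and of early response genes (82359 CPM). Its TMM factor was the lowest (0.691), and the part of these in the values was not tested.

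Among 21 tested relatives of the 9 genes, 16 had lower fitted values and 4 passed the thresholds (19%), all lower with GW2580, with a median log2 fold change of -0.40. In the fit without Vehicle 5 and GW2580 5, 7 passed, all lower, with a median of -0.60, and these included Ifitm10 (-1.08). Of all genes, 10.7% passed with all libraries and 22.3% in that fit. Ifitm2, which like Ifitm3 restricts virus entry, stood at 293, 109.6, 82.4, 68.4 and 43.3 CPM with vehicle and at 22.4, 68.4, 26.5, 9.66 and 59.6 CPM with GW2580. Its log2 fold change was -1.68 (SE 0.591, adjusted p = 0.280, edgeR), and 3 GW2580 libraries were below every vehicle library. It was -1.03 without Vehicle 1, where the call was lost (unadjusted p = 0.0689, edgeR), and -2.22 without Vehicle 5 and GW2580 5. Ifitm1 fell by 2.61 on the log2 scale (unadjusted p = 0.0115, adjusted p = 0.280, edgeR), but Vehicle 1 held 86.0 CPM against at most 8.82 in the others, and without Vehicle 1 the value was -0.57. Vehicle 1 was also the library with the highest sum of monocyte and granulocyte markers, whose part in Ifitm1 and Ifitm2 was not tested. Oas3, a synthetase of the same family as Oas1a, stood at 10.03 ± 4.51 and 4.69 ± 1.99 CPM (log2 fold change -1.10), and 4 of 5 GW2580 libraries were below every vehicle library. Without Vehicle 5 and GW2580 5 its value was -0.88, under 2-fold. The remaining called gene, Oas1c (log2 fold change -1.33, and -1.04 without Vehicle 5 and GW2580 5), was named after its value was seen.

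Of 51 other stimulated genes, 3 passed the thresholds (5.88%), all lower with GW2580, beside a median log2 fold change of -0.13. Without Vehicle 5 and GW2580 5, 10 passed, 4 higher and 6 lower, with a median of -0.05, so the calls then went both ways. The share of all genes that passed also rose in that fit, from 10.7% to 22.3%. Ly6a, a surface protein known as Sca-1, stood at 17.5, 18.7, 24.1, 17.3 and 17.9 CPM with vehicle and at 4.01, 9.95, 6.22, 4.50 and 12.9 CPM with GW2580. Isg20, an exonuclease of RNA, stood at 32.5, 20.4, 18.7, 17.9 and 20.7 CPM with vehicle and at 4.16, 15.6, 7.83, 7.95 and 14.4 CPM with GW2580. Ly6a fell by 1.35 on the log2 scale (SE 0.351, unadjusted p = 0.00178, adjusted p = 0.280) and Isg20 by 1.14 (SE 0.368, unadjusted p = 0.00772, adjusted p = 0.280, both edgeR). In both, and in Ifi205 (1.62 ± 0.497 and 0.799 ± 0.294 CPM, log2 fold change -1.02), all 5 GW2580 libraries were below all 5 vehicle libraries, which was so for 0.985% of all genes tested. These genes were named for their calls, which favours groups that do not overlap, and they are the 3 such genes among the 133 pathway genes tested. Ly6a and Isg20 kept their direction and their call without Vehicle 5 and GW2580 5, at -1.75 and -1.43, whereas Ifi205, at -0.94, did not reach 2-fold. Isg20 fell short of 2-fold without Vehicle 1 (-0.96) and without GW2580 1 (-0.94). The most abundant gene of the list, Ly6e, stood at 1865 ± 556 and 1289 ± 663 CPM and Lgals9 at 429.7 ± 131 and 375 ± 185 CPM.

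The interferon-induced GTPases, which act on vacuoles of intracellular pathogens, had 15 tested genes with a median log2 fold change of 0.19. With GW2580, 2 passed as higher, Irgm2 (3.15 ± 1.77 and 7.01 ± 5.11 CPM, log2 fold change 1.15) and, named after its value was seen, Iigp1 (log2 fold change 1.04). Iigp1 was above all 5 vehicle libraries in all 5 GW2580 libraries, as were 2.04% of all genes. So was Gbp3 (log2 fold change 0.66, under 2-fold), also named after its value was seen, and these are the 2 such genes among the 133 pathway genes tested. Without Vehicle 5 and GW2580 5, 2 passed, both higher, against 22.3% of all genes in that fit. These were Irgm2 at 1.67 and Gbp2b at 1.03, named after its value was seen, and Iigp1, at 0.71, did not pass. Without GW2580 3 Irgm2 was at 0.62 and did not pass. A further 2 genes passed as lower and were highest in Vehicle 5. Tgtp1 held 56.7 CPM in Vehicle 5 and at most 1.40 CPM in each other library, so that its log2 fold change of -3.54 became 0.088 without Vehicle 5 and GW2580 5. Gbp8 held 15.4 CPM in Vehicle 5 and at most 3.32 CPM in the others, and its value went from -1.42 to -0.52. Gbp7, the most abundant, stood at 37.5 ± 4.30 and 63.7 ± 32.2 CPM and was above every vehicle library in 4 of 5 GW2580 libraries, with a log2 fold change of 0.76 under the threshold of 2-fold. Gbp9 stood at 15.3 ± 1.97 and 22.3 ± 10.2 CPM.

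**Figure D5:**
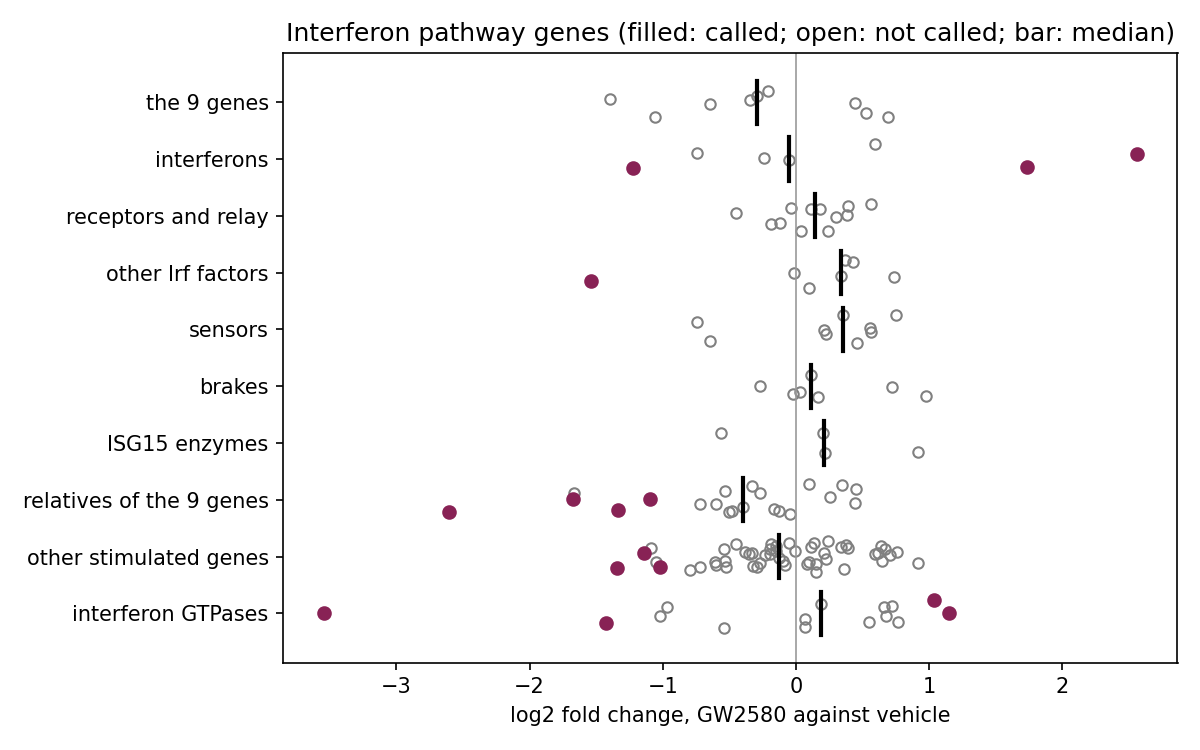
Fitted log2 fold change of GW2580 against vehicle (x axis, edgeR, all 10 libraries) of the 9 genes and of the tested genes of 9 pathway lists, 1 point per gene; filled points were more than 2-fold apart with an unadjusted p under 0.05, and bars are medians. The 9 genes hold 0 filled points, and the relatives (4 filled, median -0.40) and other stimulated genes (3 filled, median -0.13) have theirs on the lower side.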

How the data were processed

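RNA of CD11b-selected microglia was sequenced from 10 mice (SMART-Seq libraries, read pairs). The authors trimmed and aligned the reads with STAR to GRCm38 and deposited, per library, unnormalized counts per RefSeq gene (fragments aligned to 1 place and lying on exons, regardless of strand) with the gene length; the file headers name featureCounts 1.6.3. Group, sex and number of each library were read from its labels, which do not say whether mice shared a cage or day. Genes were named from RefSeq (46029 of 46152 matched).

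Genes that exceeded 1 CPM in 3 or more libraries were scaled by TMM factors and tested with edgeR 4.0.16 in R 4.3.3 (quasi-likelihood F test, treatment as the only term, Benjamini-Hochberg adjustment over 28419 genes). Calls needed more than 2-fold and an unadjusted p under 0.05, the thresholds of the study. The SE is the log2 fold change divided by the square root of F. Fold changes of log2 CPM use a prior count of 2. Correlations used 100000 permutations in Python 3.11.15 with numpy 2.4.6 and scipy 1.17.1. The count tests were checked on simulated counts. The members and lists were chosen with earlier results of these data known. Named beside the members are, in each pathway list, the 2 genes of highest mean CPM and up to 3 called genes of smallest p (1 is not reported here), and the 6 genes most like the members. Alternatives were other scalings, filters and tests (DESeq2 1.42.0, limma 3.58.1), sex and replicate number as terms, and leaving out libraries.

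Of the counting records, 24.32 to 43.3% were assigned to a gene. At these depths the least abundant of the 9 genes had 0 to 135 fragments per library, so counting error adds to the spread between mice. Without molecular identifiers, reads cannot be counted as molecules. The numbers 1 to 5 did not pair the mice, as given in the section on processing choices.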

Additional observations from a re-analysis of the deposited data

Results flagged for a closer look

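Among the 9 genes and the 28 other named genes, 74 groups of 5 libraries were searched for a single library far from the rest. The rule was a gap to the nearest other library above 0.71 of the range of log2 CPM. It found 16, where independent genes not picked on these data would give about 1 in 20, or 3.7. Some of the 28 genes were named for their calls, and those of Tgtp1 and Gbp8 rested on Vehicle 5. The genes also share the libraries, so 16 against 3.7 is no test. Of the 16, 11 were Vehicle 5. Among the 9 genes, Vehicle 5 was far below the other vehicle libraries for Ifit2 (0 CPM, next 5.00) and Mx1 (0.225 CPM, next 3.27), and GW2580 5 was far below the other GW2580 libraries for Ifit1 (5.01 CPM, next 8.04). Vehicle 5 was also far below its group for Ifnb1 (0.169 CPM, next 2.35), Ifngr1 (513 CPM, next 804), Sting1 (251 CPM, next 481), Ifitm10 (39.7 CPM, next 114), Lgals9 (197 CPM, next 467) and Ly6e (942 CPM, next 1884). It was far above its group for Gbp8 (15.4 CPM, next 3.32), Irgm2 (6.29 CPM, next 2.67) and Tgtp1 (56.7 CPM, next 1.40). The same library had the highest sum of choroid plexus and ependymal markers, and the part of these cells in the values was not tested. GW2580 4 was far below its group for Ifi205 (0.284 CPM, next 0.857) and Gbp8 (0.947 CPM, next 2.00). Vehicle 1 was far above its group for Isg20 (32.5 CPM, next 20.7) and Vehicle 3 for Ly6a (24.1 CPM, next 18.7).

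The treatment effect on Ifitm1 differed between the sexes by -2.98 on the log2 scale (male minus female, SE 1.22, unadjusted p = 0.0299, adjusted p = 1.00, edgeR interaction term), and of the 37 genes tested it was the single one with an unadjusted p under 0.05. In male mice Ifitm1 stood at 86.0 and 8.82 CPM with vehicle and at 2.52 and 6.26 CPM with GW2580, so the difference rests on Vehicle 1.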

How the results depend on the processing

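All 198 refits of the 9 genes (22 alternatives each) kept the direction but for 3 of Rsad2, whose log2 fold change ran from -0.87 to 0.23 over single libraries left out and was 0.24 without Vehicle 5 and GW2580 5 and 0.035 without Vehicle 2 and Vehicle 5. The number of the 9 genes called was 0, and 1 by limma-voom, 2 without Vehicle 5 and GW2580 5, 2 without Vehicle 2 and Vehicle 5, and 0 to 2 with single libraries left out (2 without Vehicle 5 or without GW2580 5). With the replicate number as a block, Ifitm3 was at -2.16 and 0 of 9 were called. Same-numbered libraries correlated from -0.57 to 0.39 in their deviations and 1 of 5 best with its own number, so the numbers do not pair the mice. The median log2 fold change of the 9 genes ran from -0.55 (without GW2580 3) to -0.10 (without Vehicle 1). Of the other pathway genes 15 were called, and 25 without Vehicle 5 and GW2580 5, 0 at an adjusted p under 0.05, and 10 (without GW2580 3) to 20 (without GW2580 5) with single libraries left out. Of all genes 3046 were called, and 4802 without the filter, where more genes were tested, 6057 without Vehicle 5 and GW2580 5, 0 at an adjusted p under 0.05, and 1684 (without GW2580 1) to 4848 (without GW2580 5). In 616 refits of the 28 named pathway genes 7 reversed: Tgtp1 (0.088 without Vehicle 5 and GW2580 5, 0.53 without Vehicle 2 and Vehicle 5, and -3.85 to 0.23 over single libraries), Sting1 (-0.00141 without Vehicle 2 and Vehicle 5, and -0.10 to 0.40), Pias1 (-0.15 to 0.24) and Lgals9 (-0.45 to 0.00141). The cause was not tested. Scaling by library size alone moved the median of all genes from -0.03 to 0.23 and the share of all calls that were higher from 37.5% to 70.8%. Other prior counts and the interaction scaled by library size changed no direction or call (27 of 27 refits). The removal of the length trend was chosen after seeing the data. Depth limits Ifit2 and Mx1, with 0 and 4 fragments in Vehicle 5.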
